A study of Mus musculus with 32 samples.

Results

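The liver transcriptomes described here come from the male mice of a study of *Cyp2c70* deficiency and ileal bile acid transporter (IBAT) inhibition, and the question asked of them was which responses to the IBAT inhibitor SC-435 depended on genotype. The series holds 32 liver RNA-Seq libraries from WT and *Cyp2c70* KO mice of both sexes on chow or chow with SC-435, with 4 mice in each of the 8 groups. Of these, 15 male libraries were analyzed: 3 from WT mice on chow, 4 from *Cyp2c70* KO mice on chow, 4 from WT mice on SC-435 and 4 from *Cyp2c70* KO mice on SC-435. WT chow replicate 1 was set aside because it stood apart from the other male libraries, and counts of interactions, responses and shared responses are also given with it kept. All mice were on the C57BL/6 strain and were killed at 12 weeks of age, and SC-435 was given at 0.006% of the diet, about 11 mg/kg/day. In the study's methods the KO allele is a CRISPR-Cas9 deletion that removes exon 2 and descends from 1 founder, and mice were fed freely and not fasted before the livers were perfused and taken. For every gene the SC-435 response in WT mice was subtracted from the SC-435 response in KO mice on the log2 scale, and this difference is called the interaction. An interaction below 0 means that SC-435 lowered the gene more, or raised it less, in KO than in WT mice.

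CYP2C70 is the mouse liver enzyme that turns chenodeoxycholic acid into the hydrophilic muricholic acids, so mice without it carry a more hydrophobic, human-like bile acid pool and develop cholestatic liver injury. SC-435 blocks IBAT, the ileal sodium-dependent carrier encoded by *Slc10a2* that returns bile acids to the liver. Loss of returning bile acids lowers signalling through the nuclear receptor FXR and releases the repression of *Cyp7a1*. It thereby draws cholesterol into new bile acid synthesis, which activates the transcription factor SREBP2 and its target genes. Injured bile ducts and hepatocytes release chemokines that recruit monocytes and neutrophils, many of them controlled by NF-κB.

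The 15 libraries held between 36476021 and 44573423 counted reads. *Cyp2c70* itself was read at 518, 566 and 638 CPM (counts scaled to library size, with the normalization between libraries) in WT mice on chow and at 187, 170.1, 158 and 186 CPM in KO mice on chow, so reads on the gene fell without reaching 0. On SC-435 the levels were 346, 269, 279 and 370.2 CPM in WT and 108, 149, 111 and 119.6 CPM in KO mice, and no KO library reached any WT library on the same diet. SC-435 lowered *Cyp2c70* reads in both genotypes, with a response of -0.86 in WT and -0.52 in KO mice on the log2 scale, with an interaction of 0.34 ± 0.19 (SE) and adjusted p = 0.330. The summed level of 14 hepatocyte markers lay between 67620 and 108600 CPM in the 15 libraries. The library set aside had a normalization factor of 0.658 against 0.945 to 1.30 in the other male libraries, a mean correlation with its group of 0.911 against 0.960 or more, and 640 CPM of erythroid markers against 129 to 156 CPM in the other WT chow libraries. A further library, WT SC-435 replicate 4, stood apart for acute-phase genes, with *Saa2* at 9094 CPM against 8.26 to 15.2 CPM in the rest of its group.

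Among 16932 genes tested, more genes passed the test for an SC-435 response in KO mice (8 libraries) than in WT mice (7 libraries), and the interaction passed the test for 118 genes, 0.697% of those tested (edgeR quasi-likelihood test, adjusted p under 0.05). Of these, 67 lay below 0 (0.396%) and 51 above 0 (0.301%), and 85 were beyond 1 log2 unit in either direction (0.502%). For the responses a gene had to pass the same adjusted threshold with a change of more than 1 log2 unit. In KO mice 331 genes rose (1.95%) and 1145 fell (6.76%). In WT mice 126 genes rose (0.744%) and 54 fell (0.319%) by the same rule. By the adjusted p alone, 1738 genes rose (10.3%) and 2287 fell (13.5%) in KO mice, 23.8% in all, and 282 rose (1.67%) and 191 fell (1.13%) in WT mice, 2.79% in all. The median over all genes was -0.03 for the interaction, -0.06 for the KO response and -0.01 for the WT response. These shares and medians over all genes are the background for the counts and signs in the gene lists below. Of the 67 genes with an interaction below 0, 55 fell in KO mice with no change called in WT mice, 9 rose in WT mice with no change called in KO mice, and 3 fell in KO and rose in WT mice. Of the 51 genes above 0, 25 rose in KO mice alone, 15 fell in WT mice alone, 6 rose in KO and fell in WT mice, 4 rose in both and 1 fell in both, where "alone" means that the other genotype did not pass the test. Their levels separated the 4 groups in 2 main ways. KO mice on chow were the group farthest from the mean of the 4 group levels for 52 of the 67 and 26 of the 51, and WT mice on chow were so for 15 of the 67 and 22 of the 51. On SC-435 no gene of the 118 passed the test between KO and WT mice, while 117 did on chow. These genotype differences come from the same libraries as the interaction and describe its shape.

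The number of genes called depended strongly on single libraries. With WT chow replicate 1 kept, 2 genes were called above 0 and 13 below, and all 15 were among the 118. These were *Ccl2*, *Mmp12*, *Lrp11*, *Ngef*, *Pparg*, *Mlkl*, *Dhrs9*, *Atf3*, *Ifi27l2b*, *Tnfaip3*, *Cxcl14*, *Map3k13*, *Cxcl1*, *Trem2* and *Slfn4*, and no other interaction named below as called passed with that library kept. With it kept, 236 genes rose and 521 fell in KO mice, and 53 rose and 16 fell in WT mice. Leaving out 1 of the 15 libraries at a time, all 118 genes kept their sign in all 15 fits and 116 kept an unadjusted p under 0.05 in all 15. These genes were chosen by the fit of the same libraries, so a kept sign was likely in advance and is no independent support. The counts above and below 0 were 8 and 2 without WT chow replicate 2, 1 and 2 without WT chow replicate 3, 24 and 14 without WT chow replicate 4, 79 and 162 without KO chow replicate 1, 96 and 204 without KO chow replicate 2, and 23 and 18 without KO chow replicate 3. They were 13 and 18 without WT SC-435 replicate 1, 10 and 13 without replicate 2 of that group, 92 and 114 without its replicate 3, and 44 and 37 without its replicate 4. Without KO SC-435 replicates 1, 2, 3 and 4 in turn they were 10 and 11, 6 and 6, 24 and 32, and 14 and 13. *Ccl2*, *Mmp12* and *Stard4* were the 3 genes called in all 15 of these fits, and 31 of the 118 were called in at least 8. Among genes named below, *Shc2*, *Timp1*, *Ugt1a5* and *Sdf2l1* lost the call in 12 fits. *Creld2*, *Cyp2g1*, *Nr1d2* and *Cfd* lost it in 11, *Ddit3* in 10, *Mup20* in 9, and *Cdkn1a* and *Pklr* in 8. For the responses, the KO count of genes that fell was 498 without KO chow replicate 4, 752 without KO SC-435 replicate 1 and 755 without KO SC-435 replicate 4. The WT count of genes that rose was 79, 40 and 72 without WT chow replicates 2, 3 and 4, and the WT count that fell was 18 without WT chow replicate 3, 29 without WT SC-435 replicate 1 and 26 without WT SC-435 replicate 2.

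**Figure D1:**
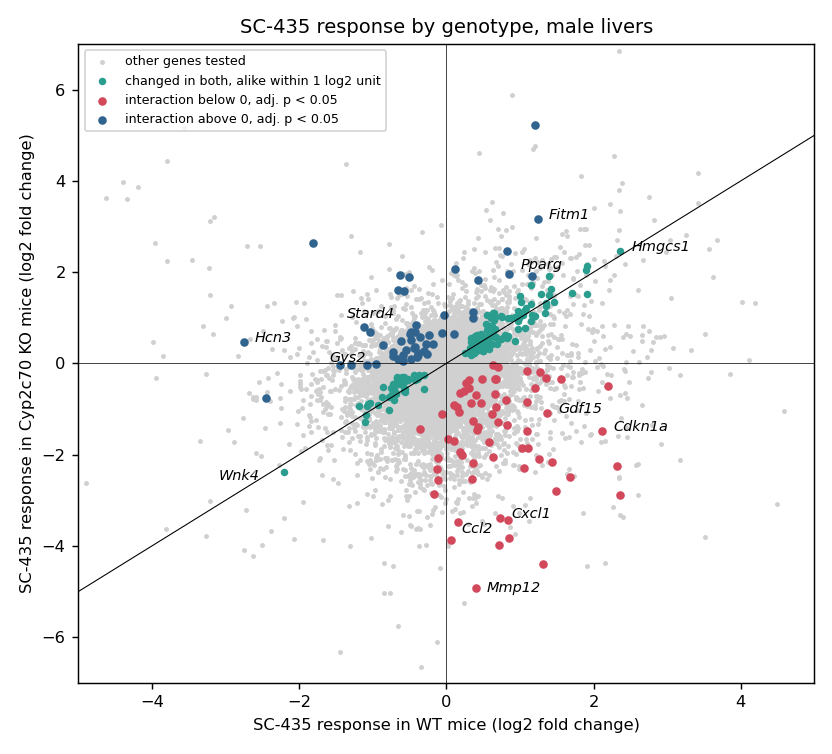
SC-435 response of each gene in WT mice (x axis, log2 fold change) against that in *Cyp2c70* KO mice (y axis, log2 fold change), with 24 of 16932 genes outside the axes, 2 of them called for the interaction. The 67 genes called below 0 (red) lie below the diagonal line of equal response and the 51 above 0 (blue) lie above it, while the 151 genes that changed alike in both genotypes (green) lie close to it.

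Promoter sequence is shown for 6 genes of the sterol and inflammatory groups described below, with the letters of known motifs in capitals. They were picked among genes that hold a motif and do not represent their groups. A sterol regulatory element, searched as TCACNCCAC on both strands, is a site that SREBP proteins bind, and the CCAAT box, searched as CCAAT on both strands, binds NF-Y, a partner of SREBP. In the 250 bases before the annotated start, 1.22% of 27025 genes with a RefSeq promoter held the first motif and 37.49% the second. Of the 25 cholesterol synthesis genes described below, 17 had a promoter entry, 16 of these held a CCAAT box and 1, *Hmgcs1*, held TCACNCCAC. *Hmgcs1* rose alike in both genotypes and *Hsd17b7* rose in both but more in KO mice, and their upstream windows are chr13:119690101-119690350 (plus strand) and chr1:169969206-169969455 (minus strand) of GRCm38.p6, with both motifs in capitals.
Hmgcs1: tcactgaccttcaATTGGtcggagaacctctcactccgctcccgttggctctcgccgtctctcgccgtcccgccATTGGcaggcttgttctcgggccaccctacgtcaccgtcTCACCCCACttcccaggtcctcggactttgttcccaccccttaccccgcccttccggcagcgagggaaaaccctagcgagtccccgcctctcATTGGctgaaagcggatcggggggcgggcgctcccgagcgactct
Hsd17b7: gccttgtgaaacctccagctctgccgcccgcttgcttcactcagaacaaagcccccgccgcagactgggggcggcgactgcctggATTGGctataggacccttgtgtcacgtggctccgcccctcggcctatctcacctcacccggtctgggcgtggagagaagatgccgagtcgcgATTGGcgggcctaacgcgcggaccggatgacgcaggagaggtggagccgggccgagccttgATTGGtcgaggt

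The NF-κB motif was searched by its 10-letter consensus on both strands, where overlapping matches count once per gene, and 4.46% of the same 27025 genes held it. Among the 67 genes with an interaction below 0, 54 had a promoter entry and 6 of these held it (11.11%), against 4 of 39 (10.26%) among genes above 0. Of 27 chemokine and cytokine genes, 20 had an entry and 7 held the motif. *Cxcl1*, a neutrophil chemokine called below 0, held 2 overlapping matches that read as 1 run of 11 letters, in chr5:90890995-90891244 (plus strand). *Tnfaip3* and *Nfkbie* encode feedback inhibitors of NF-κB and were also called below 0. *Cxcl2*, the neighbour of *Cxcl1*, was not called. No match was found for *Mmp12*, *Cxcl14*, *Trem2* or *Il1rn*, which were called below 0. Matches of *Tnfaip3*, *Nfkbie* and *Cxcl2* are shown in short form. Stretches of 30 bases around their first match lie at chr10:19015516-19015545 (minus strand), chr17:45555584-45555613 (plus strand) and chr5:90903793-90903822 (plus strand), with the match in capitals.
Cxcl1: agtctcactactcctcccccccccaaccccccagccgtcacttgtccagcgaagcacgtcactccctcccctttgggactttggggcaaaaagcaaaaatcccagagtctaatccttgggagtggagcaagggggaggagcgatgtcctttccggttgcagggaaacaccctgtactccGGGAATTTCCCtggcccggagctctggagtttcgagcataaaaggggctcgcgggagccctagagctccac
Tnfaip3: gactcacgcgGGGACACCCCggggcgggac
Nfkbie: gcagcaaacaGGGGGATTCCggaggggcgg
Cxcl2: ctgagctcaGGGAATTTCCCtggtccccgg
A match is a run of letters, and binding was not measured.

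Genes of monocyte recruitment and of macrophages gave large interactions below 0, with high levels in KO mice on chow and low levels in the other 3 groups. *Ccl2*, the chemokine that draws monocytes out of the blood, was read at 3.63, 7.77, 5.29 and 5.23 CPM in KO mice on chow. It was at 0.190, 0.368 and 0.362 CPM in WT mice on chow, 0.320, 0.258, 0.288 and 0.426 CPM in WT mice on SC-435 and 0.386, 0.361, 0.286 and 0.443 CPM in KO mice on SC-435. All 4 KO chow libraries lay above the 11 others, which overlapped each other. The KO response of *Ccl2* was -3.88, and the interaction was -3.94 ± 0.44 (adjusted p = 0.00147). *Mmp12*, the macrophage elastase, followed the same pattern with 8.68, 9.54, 24.96 and 12.7 CPM in KO mice on chow and 0.627, 0.579, 0.416 and 0.197 CPM in KO mice on SC-435. In WT mice it was at 0.272, 0.294 and 0.233 CPM on chow and 0.349, 0.328, 0.366 and 0.373 CPM on SC-435, so the KO chow group alone stood apart. Its interaction was -5.33 ± 0.60 (adjusted p = 0.00147), and with WT chow replicate 1 kept it was -5.44 and that of *Ccl2* -3.93, both still past the test.

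Other chemokines and receptors of the same cells behaved alike but with more spread between KO mice on chow. *Cxcl1* was at 37.5, 60.7, 13.4 and 11.5 CPM in KO mice on chow and 2.15, 2.02, 3.30 and 4.21 CPM in KO mice on SC-435. WT mice had 3.24, 3.09 and 3.52 CPM on chow and 4.10, 4.64, 3.01 and 10.04 CPM on SC-435, where the highest was replicate 4. The KO chow libraries lay above all others, and the interaction was -4.13 ± 0.75 (adjusted p = 0.0353). *Trem2*, the lipid-sensing receptor of scar-associated macrophages, was at 4.57, 2.83, 10.03 and 18.8 CPM in KO mice on chow against 0.845, 0.458, 0.780 and 0.468 CPM in KO mice on SC-435. It did not exceed 1.30 CPM in any WT library, and its interaction was -4.68 ± 0.86 (adjusted p = 0.0358). *Cxcl14*, a chemokine of epithelia and monocytes, had an interaction of -4.27 ± 0.74, and *Cd14*, the co-receptor for bacterial lipopolysaccharide on monocytes, one of -2.89 ± 0.53 (adjusted p = 0.0272 and 0.0366). *Tnfaip3* had 13.1, 25.2, 15.6 and 10.6 CPM in KO mice on chow and 3.91, 2.70, 3.82 and 3.79 CPM in KO mice on SC-435, with an interaction of -2.55 ± 0.43, and *Nfkbie* had one of -1.23 ± 0.26 (adjusted p = 0.0243 and 0.0477). *Il1rn*, the antagonist of the interleukin-1 receptor, had an interaction of -2.95 ± 0.62 (adjusted p = 0.0477). Without 1 library at a time these calls were lost in 9 fits for *Trem2* and *Cd14*, 8 for *Cxcl1*, 6 for *Cxcl14*, 5 for *Tnfaip3*, 12 for *Nfkbie* and 10 for *Il1rn*, with no change of sign.

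Not every inflammatory gene passed the test. *Cxcl10*, an interferon-induced chemokine, had an interaction of -0.91 ± 0.54 (adjusted p = 0.366), and *Cxcl2* one of -1.78 ± 0.91 (adjusted p = 0.299) at under 1 CPM in all 15 libraries. *Il1b*, the interleukin of activated macrophages, had an interaction of -0.19 ± 0.54 with a 95% interval from -1.34 to 0.97. Over the whole list of 24 macrophage and monocyte genes, all 24 had an interaction below 0, 3 were called (*Trem2*, *Cd14* and the integrin gene *Itgam*), and the median was -1.53 against -0.03 for all genes. In KO mice 18 of the 24 fell by the rule with the fold threshold, and none did in WT mice. The summed level of these 24 genes was 348 to 1435 CPM in KO mice on chow, 240 to 312 CPM in KO mice on SC-435, 207 to 319 CPM in WT mice on chow and 221 to 307 CPM in WT mice on SC-435. In bulk liver, fewer cells of a type and less RNA per cell cannot be told apart. Of 22 chemokine and cytokine genes tested, 16 had an interaction below 0, 3 were called below and 10 fell in KO mice. None of 10 markers of resident Kupffer cells was called, and their summed level was 756 to 1268 CPM in KO mice on chow against 586 to 724 CPM on SC-435. None of 19 T, NK and B cell genes, 8 MHC class II genes or 23 interferon response genes was called for the interaction. Its sign was below 0 for 10, 8 and 19 of them. With the fold threshold, 4 interferon response genes fell in KO mice, and none of the other lists did. At 0.697% of all genes called, lists this short may hold no call without differing from the background.

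**Figure D2:**
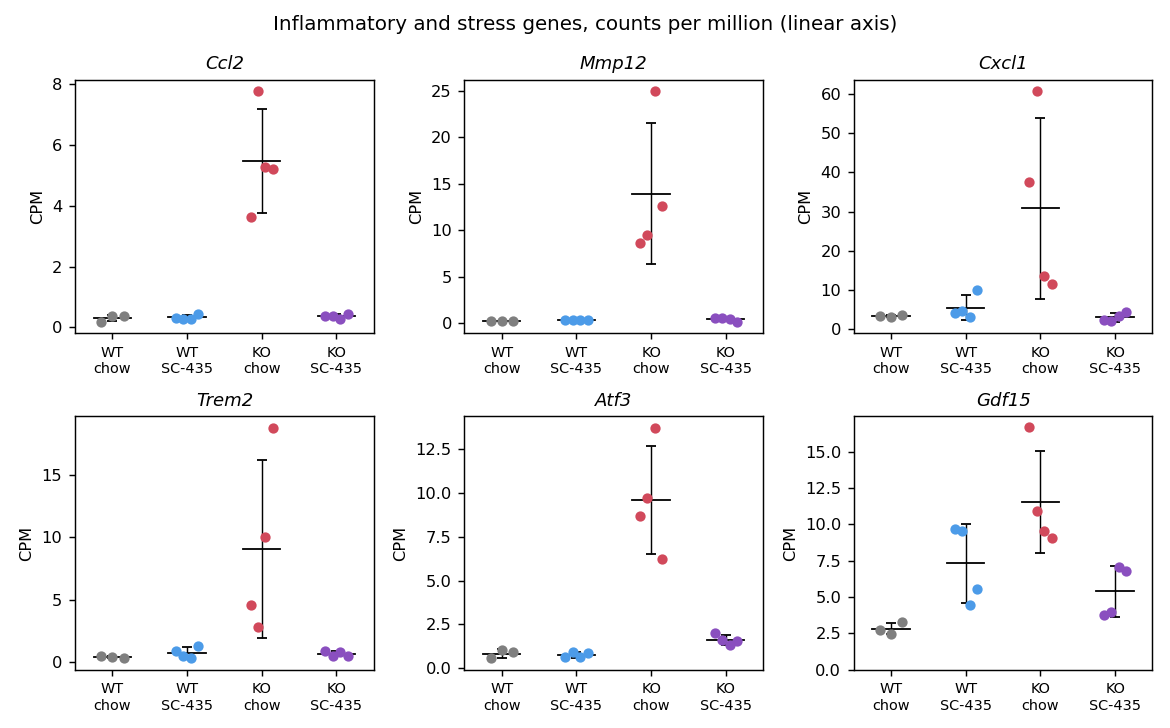
Levels in CPM (y axes, linear) of 6 inflammatory and stress genes in each of the 15 male livers, in the 4 groups (x axes); points are mice, lines the group mean and bars 1 SD. For *Ccl2*, *Mmp12*, *Cxcl1*, *Trem2* and *Atf3* all KO chow points lie above all points of the other 3 groups, while *Gdf15* was also raised in WT mice on SC-435.

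Most matrix, bile duct and proliferation genes tested fell in KO mice on SC-435. For the interaction, 2 of 30 matrix, 1 of 19 bile duct and none of 24 cell cycle genes were called below 0. Among all genes tested 0.396% were. *Spp1*, osteopontin, made by bile duct cells and macrophages, was at 142, 124, 461 and 1171 CPM in KO mice on chow and 48.7, 38.7, 41.4 and 42.1 CPM in KO mice on SC-435. WT mice had 26.6, 25.4 and 22.2 CPM on chow and 23.4, 27.5, 25.6 and 33.8 CPM on SC-435, below every KO library. Its interaction was -3.63 ± 0.77 (adjusted p = 0.0477), and 4 of the 15 fits that left out a library still called it. *Timp1*, the inhibitor of matrix metalloproteinases, had an interaction of -4.70 ± 1.01 (adjusted p = 0.0481) at 0.759 to 3.51 CPM in KO mice on chow. Of 30 matrix genes, 29 had an interaction below 0 with a median of -1.48, 2 were called (*Mmp12* and *Timp1*), 24 fell in KO mice and none in WT mice. *Col1a1*, the main fibrillar collagen chain, was at 46.2, 22.2, 109 and 229.9 CPM in KO mice on chow and 13.1, 17.4, 10.4 and 7.12 CPM in KO mice on SC-435. In WT mice it was at 6.55, 8.85 and 16.6 CPM on chow and 3.43, 5.41, 3.69 and 10.7 CPM on SC-435, and the interaction of -2.20 ± 0.87 did not pass the test (adjusted p = 0.196). Of 19 bile duct genes, all 19 had an interaction below 0 with a median of -1.43, 16 fell in KO mice, and *Spp1* was the 1 called; *Krt19*, a keratin of bile ducts, had -1.35 ± 0.45 (adjusted p = 0.138). Their summed level was 397, 323, 788 and 1555 CPM in KO mice on chow and 128 to 153 CPM on SC-435. This sum includes *Spp1*, whose 142, 124, 461 and 1171 CPM made up a large part of it in KO mice on chow. Of 24 cell cycle genes, 23 had an interaction below 0 with a median of -1.79 and 14 fell in KO mice, but none was called for the interaction. Their summed level was 102, 138, 206 and 534 CPM in KO mice on chow and 87.8 to 112 CPM on SC-435. KO chow replicate 1 thus lay within the SC-435 range, and replicate 4 was highest. Of 16 stellate cell genes, 4 fell in KO mice and none was called, with *Acta2*, smooth muscle actin, at 1.52 ± 0.88 and *Tgfb1*, transforming growth factor beta, at -0.51 ± 0.28 (adjusted p = 0.354 and 0.332).

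A further group of genes with an interaction below 0 belongs to cell stress. *Atf3*, a stress-induced transcription factor, was at 8.70, 9.73, 13.7 and 6.26 CPM in KO mice on chow and 2.03, 1.61, 1.35 and 1.53 CPM in KO mice on SC-435. WT mice had 0.571, 1.03 and 0.906 CPM on chow and 0.639, 0.937, 0.627 and 0.879 CPM on SC-435, so KO mice on SC-435 remained above every WT mouse. The interaction was -2.44 ± 0.38 (adjusted p = 0.0167), called in 12 of 15 fits without 1 library and with WT chow replicate 1 kept. *Ddit3*, the proapoptotic factor CHOP, was at 10.5, 12.9, 10.7 and 8.97 CPM in KO mice on chow and 4.26 to 7.07 CPM in every other library, with an interaction of -1.10 ± 0.23 (adjusted p = 0.0466). *Gdf15*, a secreted stress hormone, moved in opposite directions in the genotypes. It fell from 16.7, 10.9, 9.54 and 9.02 to 3.76, 3.98, 7.07 and 6.77 CPM in KO mice and rose from 2.75, 2.48 and 3.26 to 9.68, 9.53, 4.47 and 5.54 CPM in WT mice. These were a KO response of -1.10 ± 0.29 (adjusted p = 0.0150), a WT response of 1.37 ± 0.32 (adjusted p = 0.0360) and an interaction of -2.46 ± 0.43 (adjusted p = 0.0285). With WT chow replicate 1 kept, the responses were -1.07 and 0.51 and the interaction -1.59, and none of the 3 passed (adjusted p = 0.182, 0.668 and 0.314). *Creld2* and *Sdf2l1*, chaperone partners induced by unfolded protein, had interactions of -2.17 ± 0.43 and -1.98 ± 0.42 (adjusted p = 0.0453 and 0.0477). For both, WT SC-435 replicates 1 and 4 were higher than replicates 2 and 3: 70.4, 33.3, 27.8 and 63.4 CPM for *Creld2* and 51.5, 27.7, 24.1 and 68.1 CPM for *Sdf2l1*. The library set aside read 143 CPM for *Creld2* and 158 CPM for *Sdf2l1*, above every other WT chow library, and with it kept the interactions were -1.09 and -0.77 and no longer passed. Of 18 genes of the unfolded protein and integrated stress responses, these 5 were called below 0, 14 had a negative sign and the median was -0.87. *Cdkn1a*, the cell cycle inhibitor p21, had 15.2, 9.77, 12.9 and 38.2 CPM in KO mice on chow and 1.22, 1.91 and 1.42 CPM in WT mice on chow, with 10.6, 2.46, 7.63 and 5.86 CPM in WT mice on SC-435. Its interaction was -3.60 ± 0.71 (adjusted p = 0.0453), and with WT chow replicate 1, which read 33.2 CPM, it was -0.93. *Krt18* and *Krt8*, the hepatocyte keratin pair, had interactions of -1.34 ± 0.27 and -1.21 ± 0.26 (adjusted p = 0.0466 and 0.0488), lost in 12 of 15 fits each.

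Genes of other functions also had interactions below 0. *Ifi27l2b*, an interferon-inducible mitochondrial protein, was at 17.00, 10.4, 33.5 and 38.6 CPM in KO mice on chow and 4.42, 3.33, 3.38 and 3.30 CPM in KO mice on SC-435, with an interaction of -4.28 ± 0.69 (adjusted p = 0.0197). *Shc2*, a signalling adaptor, had an interaction of -5.71 ± 1.18 (adjusted p = 0.0466). *Tmc5*, a member of the transmembrane channel-like family, was at 2.35, 1.45, 5.58 and 4.82 CPM in KO mice on chow and had no read in any of the 4 KO SC-435 libraries. At a floor of 3 counts in a library, 0.0732 CPM, the mean of 3.55 ± 1.97 CPM (SD, n = 4) in KO mice on chow was at least 48.5-fold higher. In WT mice *Tmc5* had no read in 5 of 7 libraries, and WT SC-435 replicate 4 read 1.25 CPM. The interaction of *Tmc5* was -14.97 (adjusted p = 0.0488), called in 3 of the 15 fits without 1 library. Without WT SC-435 replicate 4 it was -8.26 and did not pass (adjusted p = 0.9997), so this call depended on that library. *Mup20*, a major urinary protein whose family shares near-identical sequence and so read assignment, was at 2102, 2021, 2022 and 1496 CPM in KO mice on chow and 793, 735, 615 and 658 CPM in KO mice on SC-435. WT mice had 971, 1151 and 1146 CPM on chow and 724, 980.1, 956 and 742 CPM on SC-435, and the interaction was -1.09 ± 0.21 (adjusted p = 0.0394).

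Most sterol and lipid synthesis genes had an interaction above 0. Of 25 cholesterol genes 2 passed the test above 0, and 1 of 20 fatty acid and triglyceride synthesis genes did. Among all genes tested 0.301% did. *Stard4*, which moves cholesterol between membranes and is an SREBP2 target, rose in KO mice and fell in WT mice. It was at 101, 109, 104 and 102 CPM in KO mice on chow and 189, 180.0, 201 and 175 CPM in KO mice on SC-435, a KO response of 0.84 ± 0.09 (adjusted p = 6.53e-05). In WT mice it went from 209, 228 and 205 to 151, 167, 188 and 135 CPM, a WT response of -0.42 ± 0.10 (adjusted p = 0.0361). The SC-435 groups of the 2 genotypes overlapped and the chow groups did not, and the interaction was 1.26 ± 0.14 (adjusted p = 0.00147). WT chow replicate 1 read 39.8 CPM, outside the range of all 15 libraries, and with it kept the interaction was 0.95 with adjusted p = 0.395 and neither response passed (WT response -0.08). *Hsd17b7*, an enzyme of cholesterol synthesis, was at 44.96, 46.7, 43.6 and 34.6 CPM in KO mice on chow and 142, 148, 181 and 168 CPM in KO mice on SC-435. It was at 78.4, 65.2 and 87.8 CPM in WT mice on chow and 168, 170.3, 171 and 179 CPM in WT mice on SC-435, so it rose in both genotypes from a lower level in KO mice. The interaction was 0.75 ± 0.16 (adjusted p = 0.0481), lost in 13 of 15 fits without 1 library, while both responses held in all 15.

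Of the 25 genes of the cholesterol list, *Stard4* and *Hsd17b7* included, 24 had an interaction above 0 with a median of 0.51, but these 2 alone were called. The median response was 1.60 in KO and 1.03 in WT mice, 19 rose in KO and 13 in WT mice by the rule with the fold threshold, and 19 passed the adjusted p in the same direction in both. *Nsdhl* and *Tm7sf2*, later enzymes of the pathway, had interactions of 0.72 ± 0.18 and 1.03 ± 0.24 (adjusted p = 0.0665 and 0.0597). *Sqle*, squalene epoxidase, had 0.50 ± 0.29 with a 95% interval from -0.11 to 1.11. *Pparg*, the nuclear receptor of lipid storage, was at 5.38, 5.20, 5.83 and 5.39 CPM in KO mice on chow and 22.01, 23.9, 16.5 and 21.9 CPM in KO mice on SC-435. WT mice had 10.4, 9.56 and 10.6 CPM on chow and 19.6, 18.6, 19.8 and 15.8 CPM on SC-435, so KO mice lay below WT mice on chow and overlapped them on SC-435. Its interaction was 1.10 ± 0.16 (adjusted p = 0.0129), called in 14 of 15 fits and with WT chow replicate 1 kept. *Fitm1*, a lipid droplet protein, was at 7.83, 9.57, 4.21 and 6.003 CPM in KO mice on chow and rose to 62.7, 53.7, 61.9 and 69.4 CPM, with a KO response of 3.17 ± 0.26, a WT response of 1.24 ± 0.26 and an interaction of 1.93 ± 0.35 (adjusted p = 0.0348). *Fasn*, fatty acid synthase, was at 452, 397, 339.7 and 448 CPM in KO mice on chow and 725, 722, 1058 and 895 CPM in KO mice on SC-435. In WT mice it was at 605, 499 and 676 CPM on chow and 627, 582, 476 and 633 CPM on SC-435, and the interaction was 1.09 ± 0.22 (adjusted p = 0.0453). *Aacs*, which makes acetoacetyl-CoA for lipid synthesis, had 31.3, 22.9, 62.2 and 82.4 CPM in KO mice on chow and 140.3, 183, 139.6 and 136 CPM in KO mice on SC-435, with an interaction of 2.17 ± 0.43 (adjusted p = 0.0453). Of 20 fatty acid and triglyceride synthesis genes, 19 had an interaction above 0 with a median of 0.87, *Fasn* was called, 8 rose in KO and none in WT mice. *Acacb*, an acetyl-CoA carboxylase, and *Scd1*, stearoyl-CoA desaturase, had 1.43 ± 0.31 and 1.85 ± 0.46 (adjusted p = 0.0512 and 0.0702). Without 1 library, *Fasn* lost its call in 10 of 15 fits, *Aacs* in 11 and *Fitm1* in 7. The WT response of *Fitm1* was 0.51 and did not pass with WT chow replicate 1 kept.

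**Figure D3:**
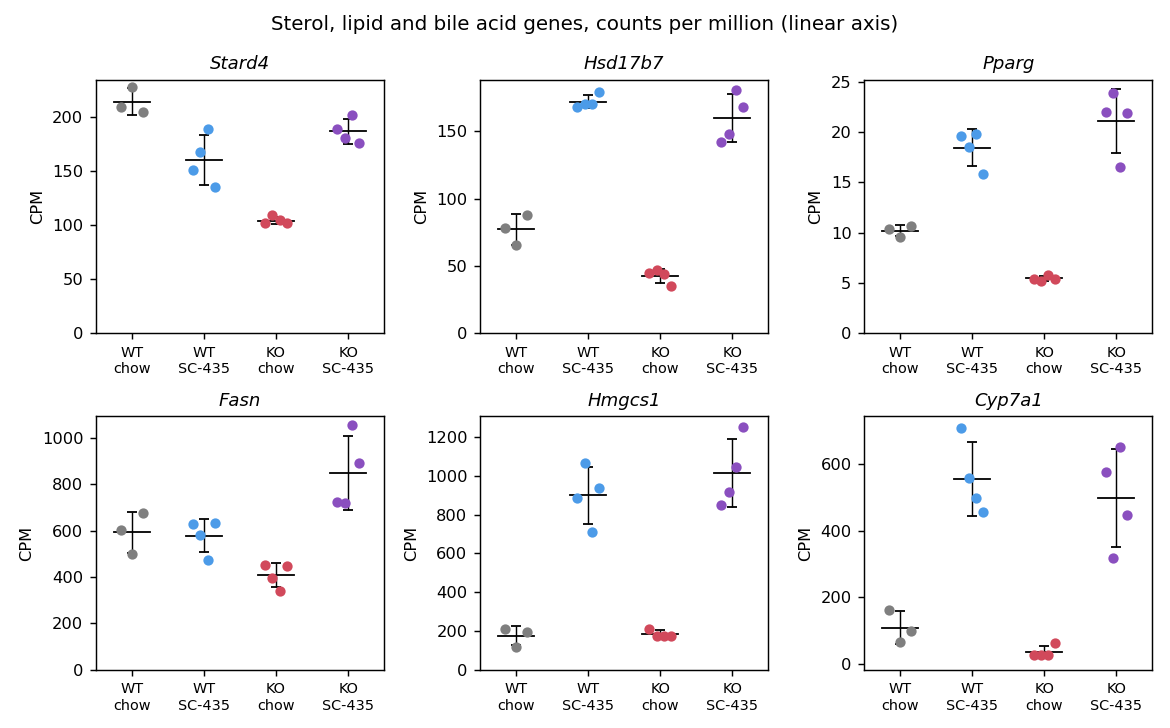
Levels in CPM (y axes, linear) of 6 sterol, lipid and bile acid genes in each of the 15 male livers, in the 4 groups (x axes); points are mice, lines the group mean and bars 1 SD. *Stard4* rose in KO and fell in WT mice, *Hsd17b7* and *Pparg* rose in both from a lower KO chow level, *Hmgcs1* rose alike, and *Cyp7a1* rose in both with wide spread.

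*Cyp7a1* rose in both genotypes. None of 17 bile acid synthesis genes and 1 of 18 transport and FXR genes were called for the interaction, against 0.697% of all genes. *Cyp7a1*, the rate-limiting enzyme of bile acid synthesis, went from 26.5, 26.9, 25.97 and 63.7 to 575, 319, 652 and 447 CPM in KO mice and from 162, 65.9 and 99.3 to 708, 557, 498 and 457 CPM in WT mice. All SC-435 libraries lay above all chow libraries, with a KO response of 3.80 ± 0.36 and a WT response of 2.35 ± 0.38 (adjusted p = 1.7e-05 and 0.00456). The interaction of 1.45 ± 0.48 did not pass the test (adjusted p = 0.131), and its 95% interval ran from 0.43 to 2.47. *Cyp8b1*, the 12α-hydroxylase that sets the cholic acid share, went from 170.1, 247, 36.6 and 51.1 to 981, 868, 1027 and 1022 CPM in KO mice and from 420.4, 201 and 257 to 1094, 1278, 1023 and 738 CPM in WT mice. The KO response passed the test and the WT response did not (adjusted p = 0.00131 and 0.0752), but the interaction was 1.13 ± 0.66 with an interval from -0.28 to 2.53 (adjusted p = 0.359). Of 17 bile acid synthesis genes none was called for the interaction, with a median of 0.19. *Nr1h4*, which encodes FXR, was at 82.2, 84.4, 69.8 and 76.98 CPM in KO mice on chow and 97.6 to 138 CPM in every other library, with an interaction of 0.61 ± 0.13 (adjusted p = 0.0477), lost in 13 of 15 fits. It was the 1 call among 18 transport and FXR genes, whose median was 0.34. *Klb*, the FGF15 co-receptor, had 1.09 ± 0.26 and *Slc10a1*, the hepatocyte bile acid uptake carrier NTCP, had 0.96 ± 0.28 (adjusted p = 0.0638 and 0.101). *Abcb11*, the bile salt export pump, had 0.14 ± 0.14 with an interval from -0.17 to 0.44, and its level was 690 to 926 CPM across the 15 livers.

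*Slc10a2*, the gene of the drug's target, is also expressed by bile duct cells and was read in all 15 livers. It was at 38.4, 35.7, 66.7 and 65.7 CPM in KO mice on chow, 24.6, 23.4, 40.95 and 25.8 CPM in KO mice on SC-435, 10.1, 10.01 and 9.01 CPM in WT mice on chow and 28.8, 11.8, 20.8 and 21.4 CPM in WT mice on SC-435. WT mice on chow were lowest and KO mice on chow had 2 libraries above all others, and the interaction was -1.94 ± 0.40 (adjusted p = 0.0466), lost in 10 of 15 fits. In KO mice both *Slc10a2* and the summed bile duct markers given above, *Spp1* included, were lower on SC-435. In WT mice *Slc10a2* had a response of 1.09 that did not pass the test (adjusted p = 0.0657), while the summed markers were 114 to 124 CPM on chow and 86.3 to 152 CPM on SC-435. The part of bile duct cells in this result was not tested.

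Other genes above 0 had low KO chow levels. *Ugt1a5*, a glucuronosyltransferase that shares its 3′ exons with the other Ugt1a genes, was at 8.14, 12.6, 13.7 and 8.01 CPM in KO mice on chow and 42.2, 32.5, 56.7 and 46.2 CPM in KO mice on SC-435, with an interaction of 1.96 ± 0.41. *Cyp2g1*, a P450 known from olfactory mucosa, had 2.27 ± 0.47 (adjusted p = 0.0477 and 0.0477). *Aqp4*, a water channel, and *Jph1*, a junctophilin that tethers membranes, had interactions of 2.58 ± 0.42 and 2.41 ± 0.39 (adjusted p = 0.0209 and 0.0192). *Aqp4* was at 1.48, 1.54, 0.821 and 1.18 CPM and *Jph1* at 0.650, 0.322, 0.533 and 0.295 CPM in KO mice on chow, in each case below all 11 other libraries. Among 24 xenobiotic P450 and related genes, 21 had an interaction above 0 with a median of 0.63, and none was called for the interaction. Of the 24, 11 rose in KO and 2 in WT mice, against 1.95% and 0.744% of all genes tested.

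The responses common to both genotypes held 19 of the 25 cholesterol genes. With adjusted p under 0.05 in both genotypes and no fold threshold, 176 genes rose in both (1.04% of those tested) and 57 fell in both (0.337%), and 9 moved in opposite directions. For 109 of the 176 and 42 of the 57 the 95% interval of the interaction lay within 1 log2 unit of 0, and these 151 are described as alike. That bound is wide beside the responses. Their medians were 1.01 in KO and 0.97 in WT mice for the 176, and -0.68 and -0.74 for the 57. Alike genes may therefore still differ in the size of their response. Of the 126 genes that rose in WT mice beyond 1 log2 unit, 73 also did in KO mice (57.9% of the WT and 22.1% of the KO list), and of the 54 that fell, 16 also did in KO mice (29.6% and 1.40%). Without 1 library the number that rose in both was 92, 50 and 83 without WT chow replicates 2, 3 and 4, and 101 and 105 without WT SC-435 replicates 1 and 2. The number that fell in both was 34, 17 and 28 without WT chow replicates 2, 3 and 4, 37 without KO chow replicate 3, 28, 27 and 121 without WT SC-435 replicates 1, 2 and 4, and 33 and 34 without KO SC-435 replicates 1 and 4. The number alike was 72, 34 and 66 without WT chow replicates 2, 3 and 4, and 76, 70 and 275 without WT SC-435 replicates 1, 2 and 4. With WT chow replicate 1 kept, 44 rose in both, 11 fell in both and 16 were alike.

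*Hmgcs1*, HMG-CoA synthase at the head of the cholesterol pathway, rose from 210.0, 119 and 195 to 884, 1067, 711 and 937 CPM in WT mice and from 212, 176, 176 and 173 to 847, 918, 1044 and 1249 CPM in KO mice. The SC-435 libraries of both genotypes overlapped and lay above all chow libraries. Its responses were 2.36 ± 0.21 in WT and 2.46 ± 0.18 in KO mice, and the interaction had a 95% interval from -0.45 to 0.65. *Mvd*, mevalonate diphosphate decarboxylase of the same pathway, rose by 1.90 in WT and 2.05 in KO mice on the log2 scale. *Pmm1*, a phosphomannomutase, rose by 1.91 and 1.53, and *Fam126a*, which helps make phosphatidylinositol 4-phosphate at the plasma membrane, by 1.71 and 1.54. *Nt5e*, the ectonucleotidase CD73, rose by 1.42 and 1.63, and *Dntt*, terminal deoxynucleotidyltransferase, by 1.91 and 2.13 at no more than 3.20 CPM. *Cd36*, a fatty acid carrier on the cell surface, rose by 1.46 and 1.35. The WT responses of *Mvd* and *Pmm1* were 1.05 and 1.01 with WT chow replicate 1 kept and did not pass (adjusted p = 0.332 and 0.349), and the interaction of *Mvd* was 1.03. Of the 25 cholesterol genes 9 were alike, *Insig1*, the SREBP retention protein, and *Srebf2*, which encodes SREBP2, among them. *Srebf2* went from 72.8, 75.2 and 85.5 to 126, 108, 118 and 139 CPM in WT and from 87.6, 77.02, 76.5 and 76.03 to 117, 118, 123 and 116 CPM in KO mice, with an interaction of -0.08 ± 0.12.

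Of the genes that fell alike, *Wnk4*, a kinase that controls salt transporters, gave the largest change. It went from 5.90, 9.10 and 7.46 to 1.42, 1.29, 1.86 and 1.92 CPM in WT mice and from 5.85, 7.57, 9.76 and 5.19 to 1.23, 1.59, 1.20 and 1.38 CPM in KO mice. No SC-435 library reached any chow library of either genotype. The responses were -2.21 ± 0.23 in WT and -2.39 ± 0.22 in KO mice, and the interaction had a 95% interval from -0.86 to 0.49. *Fgfr2*, a fibroblast growth factor receptor, fell by 1.19 in WT and 0.94 in KO mice on the log2 scale. *Spred1*, an inhibitor of Ras-ERK signalling downstream of such receptors, fell by 1.10 and 1.12. *Adamts7*, a secreted metalloproteinase, fell by 1.10 and 1.28, and *Caprin2*, an RNA-binding protein, by 0.93 and 0.91. The predicted gene *Gm35339* fell by 1.08 and 0.94. With WT chow replicate 1 kept, neither response of *Spred1*, *Caprin2* or *Gm35339* passed the test.

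**Figure D4:**
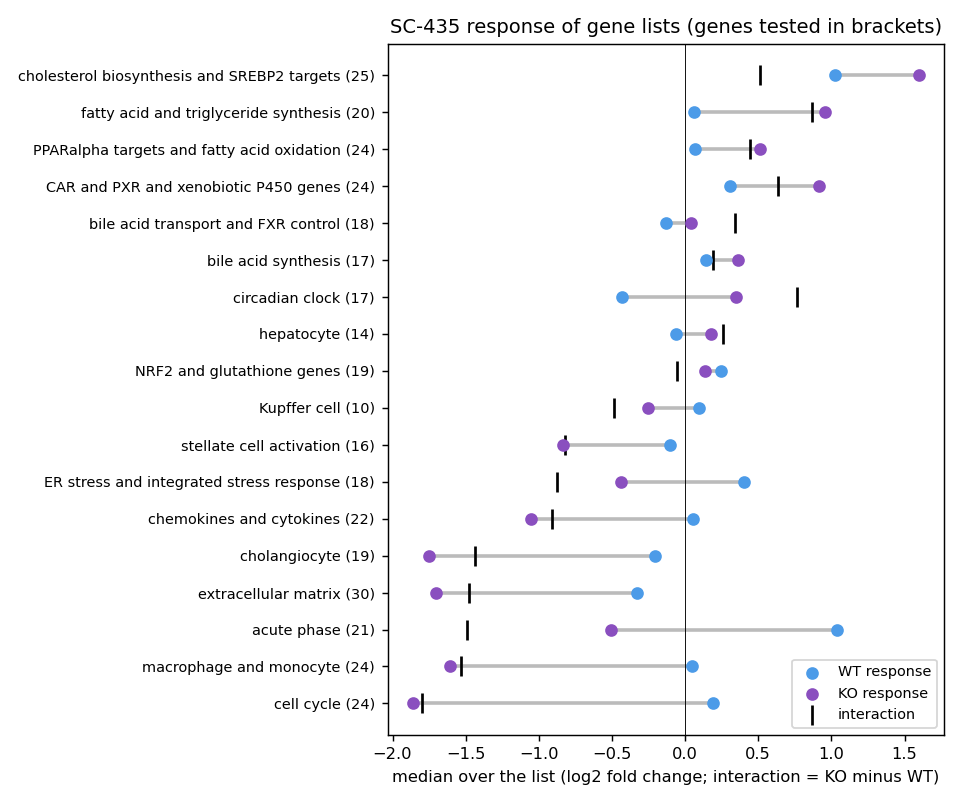
Median SC-435 response of 18 gene lists (y axis, genes tested in brackets) in WT mice (blue) and *Cyp2c70* KO mice (purple), with the median interaction as a black bar (x axis, log2 fold change). The medians for matrix, bile duct, macrophage and cell cycle lists lie between -1.86 and -1.61 in KO and between -0.33 and 0.19 in WT mice, while the cholesterol list is above 0 in both.

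Of the 118 genes, 24 passed the test for the response in WT but not in KO mice, and a further 9 moved in opposite directions. *Lrp4*, a receptor of the LDL receptor family, was at 38.6, 41.4 and 35.8 CPM in WT mice on chow and 21.6, 20.6, 25.99 and 25.7 CPM in WT mice on SC-435, and at 18.8, 18.1, 18.4 and 19.1 CPM in KO mice on chow and 22.1, 20.1, 23.01 and 18.8 CPM in KO mice on SC-435. WT mice on chow stood above the other 3 groups, with a WT response of -0.72 ± 0.10 and an interaction of 0.89 ± 0.13 (adjusted p = 0.0129). *Ngef*, a guanine nucleotide exchange factor, gave the same picture with a WT response of -0.95 ± 0.10 and an interaction of 0.95 ± 0.14 (adjusted p = 0.0129). *Gys2*, liver glycogen synthase, was at 211, 232 and 207 CPM in WT mice on chow, 122, 133, 133 and 89.97 CPM in WT mice on SC-435, 89.4, 112, 87.6 and 77.9 CPM in KO mice on chow and 118, 110.4, 129 and 126 CPM in KO mice on SC-435. It fell by 0.86 in WT mice and rose by 0.39 in KO mice on the log2 scale, with an interaction of 1.25 ± 0.19 (adjusted p = 0.0138). *Pcsk4*, a proprotein convertase known from germ cells, had the same opposite signs with an interaction of 1.15 ± 0.15 (adjusted p = 0.00885). With WT chow replicate 1 kept, the responses of *Pcsk4* were -0.18 in WT and 0.68 in KO mice with an interaction of 0.85, and neither these nor the responses of *Gys2* passed. In the other direction *Lrp11*, another LDL receptor relative, rose by 1.20 in WT and fell by 0.53 in KO mice, and *Mlkl*, the effector of necroptosis, rose by 0.81 and fell by 0.80. Their interactions were -1.73 ± 0.25 and -1.61 ± 0.25 (adjusted p = 0.0129 and 0.0159), and both interactions passed with WT chow replicate 1 kept, as did that of *Ngef*, while the KO response of *Lrp11* did not. *Pklr*, liver pyruvate kinase, and *Hcn3*, a cation channel, had WT responses of -1.44 ± 0.19 and -2.75 ± 0.41 and interactions of 1.41 ± 0.26 and 3.22 ± 0.56 (adjusted p = 0.0366 and 0.0269). *Adgrf1*, an adhesion receptor, fell in both, by 2.45 in WT and 0.75 in KO mice, with an interaction of 1.70 ± 0.31 (adjusted p = 0.0353), and its KO response did not pass with WT chow replicate 1 kept.

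Clock genes separated the WT chow group in the same way. *Dbp*, a clock-controlled transcription factor whose liver level swings over the day, was at 136, 126 and 135 CPM in WT mice on chow and 2.89, 6.95, 16.1 and 27.3 CPM in KO mice on chow. It was at 55.6, 51.6, 62.3 and 19.3 CPM in WT and 34.8, 23.4, 73.8 and 19.8 CPM in KO mice on SC-435, so all 3 WT chow libraries lay above the 12 others, and the library set aside read 15.8 CPM. *Arntl*, the core clock factor of opposite phase, was at 4.43, 2.77 and 1.97 CPM in WT mice on chow and 6.80 to 27.3 CPM in the rest. Their interactions were 3.00 ± 0.81 and -2.01 ± 0.57 (adjusted p = 0.0865 and 0.0961). *Nfil3*, a clock output repressor, rose by 1.56 in WT mice, with an interaction of -1.90 ± 0.34, and *Nr1d2*, the clock repressor REV-ERBβ, had 0.99 ± 0.21 (adjusted p = 0.0353 and 0.0477). The summed level of 17 clock genes was 973 to 1026 CPM in WT mice on chow and 481 to 847 CPM in the other libraries. The hour of tissue collection is not given in the sources used here, and the part of clock phase in the genes set apart by WT chow was not tested. For *Lrp4*, *Hcn3*, *Nfil3* and *Gys2* the library set aside read 18.7, 4.49, 42.8 and 117 CPM, in each case on the side of the other groups, and with it kept none of these 4 interactions passed, nor did their WT responses.

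**Figure D5:**
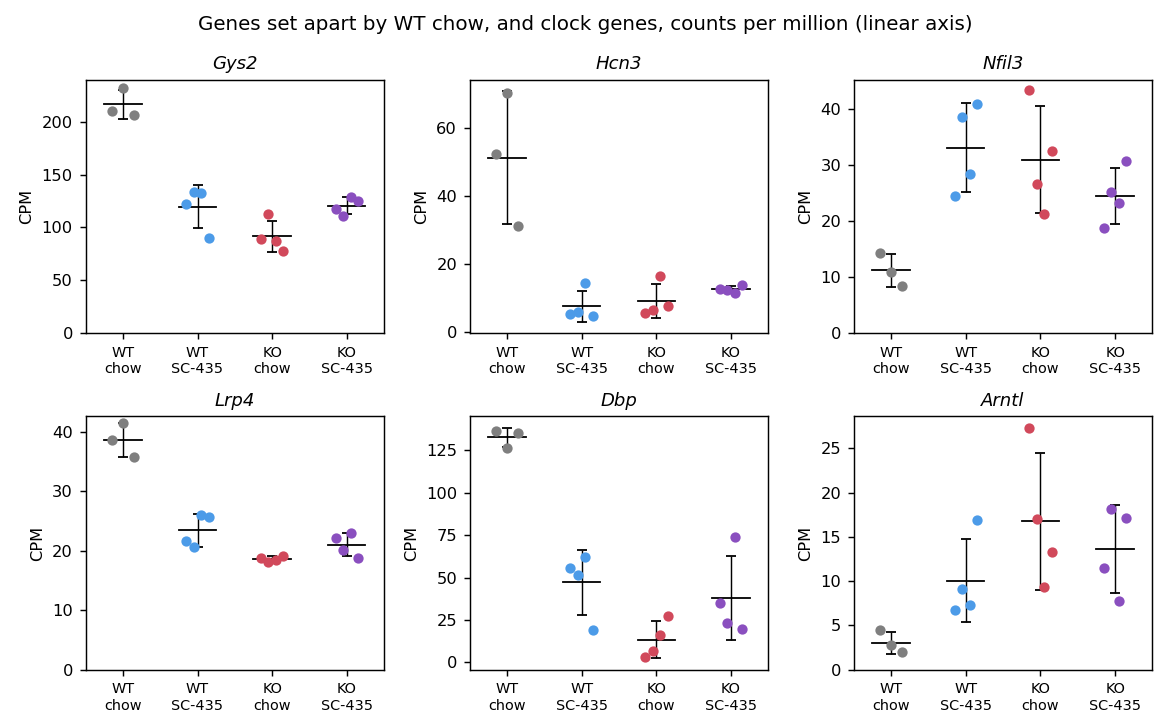
Levels in CPM (y axes, linear) in each of the 15 male livers of 4 genes called for the interaction and of 2 clock genes, *Dbp* and *Arntl*, in the 4 groups (x axes); points are mice, lines the group mean and bars 1 SD. The 3 WT chow points lie above all others for *Gys2*, *Hcn3*, *Lrp4* and *Dbp*, and at the low end for *Nfil3* and *Arntl*.

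A few interactions depended on single libraries. *Cfd*, the adipocyte protease adipsin, had an interaction of 11.79 ± 2.36 (adjusted p = 0.0453), but its level was 0.0816, 0.221 and 44.1 CPM in WT mice on chow and 41.3, 67.2, 0.988 and 7.56 CPM in KO mice on SC-435. The libraries at 41 CPM or more were WT chow replicate 4 and KO SC-435 replicates 1 and 2, and those 3 also held *Adipoq*, the fat cell hormone adiponectin, at 6.32, 5.19 and 8.48 CPM against no more than 0.112 CPM in the other 12. Of 8 adipocyte genes tested, all 8 had an interaction above 0 and *Cfd* was the 1 called, and their summed level was 22.4 to 123 CPM in WT mice on chow, 16.6 to 22.9 CPM in KO mice on chow, 30.1 to 59.2 CPM in WT mice on SC-435 and 28.0 to 177 CPM in KO mice on SC-435. Without WT chow replicate 4 the interaction of *Cfd* was 5.24 and did not pass. For some acute-phase genes the size of the interaction depended on WT SC-435 replicate 4. *Saa1*, *Saa2* and *Lcn2* read 9302, 9094 and 763 CPM there, and their interactions of -8.37 ± 2.24, -10.29 ± 2.72 and -10.23 ± 2.45 did not pass the test (adjusted p = 0.0862, 0.0826 and 0.0644). Without that library they were smaller in size but of the same sign, at -2.35, -2.62 and -4.29 (adjusted p = 0.0421, 0.0534 and 0.0192). Those of *Saa1* and *Lcn2* then passed the test. The same library had the highest *Cxcl1*, *Cxcl14* and *Il1rn* of its group, and without it their interactions were -3.65, -3.23 and -2.26.

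When the genotypes were compared on SC-435 alone, 9 of 16932 genes passed the test (0.0532%), against 2623 on chow (15.5%). *Cyp2c70* was among the 9. *Camk2b*, a calmodulin-dependent kinase subunit, was at 22.6, 21.9 and 20.8 CPM in WT mice on chow and 24.6, 22.7, 18.7 and 21.1 CPM in WT mice on SC-435, and at 6.50, 7.31, 7.92 and 7.31 CPM in KO mice on chow and 4.22, 4.84, 5.07 and 5.81 CPM in KO mice on SC-435. The KO libraries lay below all WT libraries on either diet, and its interaction was -0.54 ± 0.16 (adjusted p = 0.1003). *Ide*, insulin-degrading enzyme, was at 97.8, 100.3 and 109 CPM in WT mice on chow and 125, 111, 124 and 114 CPM in WT mice on SC-435, and at 183, 206, 180.1 and 188 CPM in KO mice on chow and 203, 218, 208 and 218 CPM in KO mice on SC-435, with an interaction of -0.05 ± 0.10. *Ide* (chr19:37268743-37337852) and *Cyp2c70* (chr19:40153353-40187333) lie on the same chromosome in GRCm38. *Lrtm2*, a leucine-rich repeat membrane protein, was at 6.996, 5.43, 12.00 and 10.4 CPM in KO mice on chow and 6.25, 3.71, 4.86 and 6.13 CPM on SC-435, against no more than 0.172 CPM in any WT library. A test that calls few genes does not show that the other genes were equal.

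The interaction was also set against that of the female mice, in 1 fit of 31 libraries over 17841 genes. A difference between the sexes passed the test for 4 genes (0.0224%), with 2118 genes at an unadjusted p under 0.05. *Sec11c* and *Sec61b*, which encode a signal peptidase subunit and a subunit of the channel that takes secreted proteins into the endoplasmic reticulum, had interactions of -0.82 and -0.36 in males and 0.48 and 0.64 in females. The sex differences were -1.31 ± 0.23 and -1.002 ± 0.186 (adjusted p = 0.0316 and 0.0463). *Dpysl2*, a cytoskeletal regulator, had -0.80 in males and 1.10 in females (adjusted p = 0.0364), and *Fam19a2*, a secreted chemokine-like protein, had 0.11 in males and 5.01 in females (adjusted p = 0.0252). No gene was called without WT chow replicates 2 or 3 or without KO chow replicates 1, 2 or 4, 1 gene was called without KO chow replicate 3, WT SC-435 replicate 2 or with WT chow replicate 1 kept, 2 without KO SC-435 replicate 1, and 10 without WT SC-435 replicate 3.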

How the data were processed

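RNA-Seq reads from whole liver were aligned and counted per gene by the authors. The submitters' notes name HISAT2 2.0.5, featureCounts 1.5.0-p3 and DESeq2 1.20.0 with the mouse build mm10. The deposited counts are raw reads per gene and were used for every result. The deposited FPKM values, scaled by the authors to gene length and library total, were not tested, and the authors' columns of fold changes and p-values were not used. Members and gene lists were chosen with earlier results of these data known.

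Genes were kept by edgeR's filterByExpr, and libraries were scaled by TMM, which assumes that most genes do not change. The interaction and each response were tested with edgeR 4.0.16 (quasi-likelihood, R 4.3.3) in 1 fit of 15 libraries, with Benjamini-Hochberg adjustment over all 16932 genes. Errors are standard errors of the log2 change, and CPM are counts scaled to the TMM library size. Alternatives used DESeq2 1.42.0, limma 3.58.1 with voom, other filters and scalings, a replicate block, each genotype fitted on its own libraries, and leaving out each library. Scripts were tested on simulated data. Genes to name were protein-coding with a mean of at least 50 counts: the 8 largest called interactions in each direction, the 6 largest alike responses in each direction, up to 5 opposite and 5 WT-led genes, up to 4 by p in each list, and the genes discussed in the study. A gene that this rule names is not reported here. Genes named outside this rule, such as *Dbp* for its level in WT chow, the lower counts *Cxcl2*, *Timp1* and *Tmc5*, and other members of a list, were chosen after their values were seen. Strand use in counting is not given in the sources used here, so reads of overlapping genes cannot be told apart. The labels do not say whether replicates came from separate litters or cages. Intervals of log2 changes come from the fit and include the spread between mice, while the floor covers counting error only. No 2 libraries were counted as 1 sample.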

Additional observations from a re-analysis of the deposited data

Results flagged for a closer look

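Single livers lay far from the rest of their group of 4 by Dixon's test at the 95% level, which chance alone exceeds in about 1 of 20 groups. Several genes and groups were tested, so some of these cases are expected at that rate. WT SC-435 replicate 4 was the library apart in 10 of these cases. It was high for *Saa1* (9302 CPM), *Saa2* (9094 CPM), *Lcn2* (763 CPM), *Cd14* (4.45 CPM), *Mlkl* (7.49 CPM) and *Tmc5* (1.25 CPM). For *Cd36* it read 57.7 CPM, for *Ugt1a5* 23.1 CPM, for *Tm7sf2* 193 CPM and for *Dbp* 19.3 CPM. KO chow replicate 4 stood apart for *Cyp7a1* (63.7 CPM) and *Mup20* (1496 CPM), and KO chow replicate 1 for *Hmgcs1* (212 CPM) and *Srebf2* (87.6 CPM). Among KO mice on SC-435, replicate 1 stood apart for *Ifi27l2b* (4.42 CPM), replicate 2 for *Tnfaip3* (2.70 CPM) and *Aacs* (183 CPM), and replicate 3 for *Lcn2* (2.65 CPM) and *Il1b* (0.754 CPM).

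The interaction differed between male and female mice for *Fam19a2* (male minus female -4.90), *Dpysl2* (-1.91), *Sec11c* (-1.31) and *Sec61b* (-1.002), each by the test of the difference itself in edgeR. The library set aside, WT chow replicate 1, held signals beyond those of the other WT chow libraries. Its summed level was 209400 CPM for 14 hepatocyte markers, 12850 CPM for NRF2 and glutathione genes, 5439 CPM for stress response genes and 640 CPM for erythroid genes.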

How the results depend on the processing

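The direction of all 118 interactions held in every fit without 1 library and under DESeq2, other scalings, no filter and the replicate block. With WT chow replicate 1, 116 kept their sign. All these fits reuse the libraries that chose the 118, so kept signs are no independent support. The number past the threshold did not hold. Interactions above and below 0 numbered 2 and 13 with WT chow replicate 1, 378 and 519 with DESeq2, 13 and 29 with library size only, 118 and 145 without a filter, 263 and 205 with voom and that library down-weighted, and 26 above 0 at a log2 value beyond 1. Of the 118, 15, 118, 40, 114 and 114 were also called in the first 5 of these settings. Library size only moved the median interaction over all genes from -0.03 to -0.155. The KO count that rose was 209 at a mean of at least 50 counts. The KO count that fell was 521 with WT chow replicate 1, 674 at that mean, 666 with voom and 730 on KO libraries alone. WT counts that rose and fell were 53 and 16 with WT chow replicate 1, 199 and 96 with DESeq2, and 219 and 197 with voom. Genes that rose in both genotypes numbered 44, 338 and 533 in these 3 settings, and those that fell in both 11, 104 and 234. The latter were 92 with library size only, 37 without a filter and 33 with each genotype on its own libraries. Alike genes numbered 16, 312 and 591, and sex differences 1, 126 and 113, or 2 without a filter. The cause was not tested.

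Without 1 library the ranges were 1 to 96 above 0 and 2 to 204 below, 265 to 366 and 498 to 1407 in KO mice (rose, fell), 40 to 146 and 18 to 73 in WT mice, 50 to 257 and 17 to 121 in both, 34 to 275 alike, and 0 to 10 sex differences. Replicate numbers did not pair the mice: 3 of 21 same-number pairs correlated above 0.1, and 5 of 15 libraries correlated best with their own number. With the replicate block, 44 interactions were called above 0 and 49 below, 36 genes fell in both and 96 were alike.

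Uncalled interactions near 0 changed sign. *Hmgcs1* was at -0.009538 with WT chow replicate 1, -0.01933 with library size only and -0.06207 with voom. With WT chow replicate 1, *Pmm1* was at 0.55, *Srebf2* at 0.40, *Gm35339* at -0.22 and *Caprin2* at -0.27. *Caprin2* was at -0.09695 with library size only and -0.004652 at a mean of at least 50 counts, *Cd36* at 0.08659 with voom, and *Spred1* at 0.003414 with DESeq2, 0.001735 with its size factors, 0.001079 without a filter and 0.25 with voom. Without 1 library their interactions ranged over -0.05185 to 0.31 for *Hmgcs1*, -0.26 to 0.00232 for *Fam126a*, -0.05168 to 0.47 for *Nt5e*, -0.34 to 0.02188 for *Wnk4*, -0.14 to 0.17 for *Spred1*, -0.09764 to 0.13 for *Caprin2*, -0.05646 to 0.35 for *Gm35339*, -0.30 to 0.18 for *Cd36*, -0.53 to 0.10 for *Il1b* and -0.32 to 0.9967 for *Lrtm2*. Of other values of single genes, 135 lost and 33 gained significance over all settings with every library, and 454 and 16 over the fits without 1 library. Groups of 3 or 4 mice limit all counts, and genes of few reads have the widest intervals.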
